A study of Mus musculus with 20 samples.

Results

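The 7 genes described here, Podxl, C2cd4a, Cda, Plek2, Fabp5, Fam124a and Cpd, are 7 of the 37748 entries of the expression table, and were chosen for their large rises in mouse CFU-E after phenylhydrazine (PHZ). Each was among the 6 largest rises in at least 1 genotype. Predicted genes, pseudogenes, receptor segments, genes with a mean under 5 and genes without a limma adjusted p below 0.05 were left out of this ranking. The rows of the table whose Ensembl identifiers map to these 7 symbols were taken, and all 7 were present. All 7 also passed the filter on low values, which asked for a signal of 1 or more in 5 or more of the 20 libraries. C2cd4a met it through its PHZ libraries alone, with 0 of 10 PBS libraries at 1 or more, whereas the other 6 had 7 to 10 such PBS libraries. The size of the PHZ rise is therefore given as a description, with no test. CFU-E (colony-forming units-erythroid) are progenitors committed to the red cell lineage. The 4 groups, of 5 libraries each, were Mx1-Cre mice injected with PBS, Mx1-Cre mice injected with PHZ, Mx1-Cre Srsf2 P95H/+ mice injected with PBS and Mx1-Cre Srsf2 P95H/+ mice injected with PHZ (the last genotype is called P95H below). PHZ was given under the skin at 30 mg/kg on day 0 and again on day 1, and the cells were sorted from marrow on day 4 as viable c-Kit high cells that were negative for lineage markers, Sca-1, CD41, CD16/32 and CD150 and positive for CD105. All 4 groups carried Mx1-Cre, in which an interferon-responsive promoter drives Cre in blood-forming cells and in other tissues as well. The P95H allele was heterozygous, so these cells kept 1 normal copy of the splicing factor. The sources used here do not give the age of the mice. A separate animal number stands in each library name, and p-values measure the spread between these libraries.

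PHZ damages red cells and causes haemolytic anaemia, to which the body responds with erythropoietin (EPO). EPO acts on CFU-E through its receptor, JAK2 and STAT5, and lets more of them survive and divide. The 7 genes belong to different families and reside on 7 different chromosomes. Podxl encodes podocalyxin, a sialomucin of the CD34 family known from kidney podocytes, vessels and blood progenitors. C2cd4a encodes a nuclear protein with a C2 domain that is best known from pancreatic islets. Cda encodes cytidine deaminase, which turns cytidine and deoxycytidine into uridine and deoxyuridine. Plek2 encodes pleckstrin-2, a phosphoinositide-binding relative of platelet pleckstrin that acts on the actin cytoskeleton of erythroblasts. Fabp5 encodes a fatty acid binding protein that can carry ligands to the nuclear receptor PPAR-delta. Cpd encodes carboxypeptidase D, a membrane-bound enzyme of the trans-Golgi that removes basic residues from the C-terminus of peptides.

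In GENCODE vM21 (GRCm38) the 7 genes are protein-coding: Podxl on the minus strand of chr6:31519488-31563981, C2cd4a on the minus strand of chr9:67830489-67832330, Cda on the minus strand of chr4:138338424-138367992, Plek2 on the minus strand of chr12:78888691-78906964, Fabp5 on the plus strand of chr3:10012548-10016607, Fam124a on the plus strand of chr14:62555737-62608486 and Cpd on the minus strand of chr11:76778424-76847018. The expression values are per whole gene. Fam124a overlaps Gm4131 on the opposite strand, and the sources used here do not say whether the counting used strand. RefSeq promoter windows (build GRCm38.p6, 250 bases before to 50 after the gene start) matched 5 of the 7 genes, those of C2cd4a, Cda, Plek2, Fam124a and Cpd. The windows of C2cd4a and Fam124a, shown because they lie at the ends of the range in base composition, and that of Cpd, a gene already well expressed without PHZ, read 5′ to 3′ on each gene's own strand, with the motif matches in capitals:
C2cd4a (chr9:67832281-67832580, minus strand): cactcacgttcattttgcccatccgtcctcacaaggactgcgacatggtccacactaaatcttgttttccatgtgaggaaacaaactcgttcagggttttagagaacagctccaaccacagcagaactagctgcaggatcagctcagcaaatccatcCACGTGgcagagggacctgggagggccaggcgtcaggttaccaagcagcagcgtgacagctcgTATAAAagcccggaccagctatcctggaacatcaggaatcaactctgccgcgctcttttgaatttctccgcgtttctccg
Fam124a (chr14:62555487-62555786, plus strand): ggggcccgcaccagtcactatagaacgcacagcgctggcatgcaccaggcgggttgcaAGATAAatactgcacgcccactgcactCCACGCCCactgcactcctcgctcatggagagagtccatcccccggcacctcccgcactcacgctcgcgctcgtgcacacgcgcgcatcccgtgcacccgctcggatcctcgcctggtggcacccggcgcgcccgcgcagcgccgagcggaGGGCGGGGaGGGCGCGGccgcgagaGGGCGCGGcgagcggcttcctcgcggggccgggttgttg
Cpd (chr11:76846959-76847258, minus strand): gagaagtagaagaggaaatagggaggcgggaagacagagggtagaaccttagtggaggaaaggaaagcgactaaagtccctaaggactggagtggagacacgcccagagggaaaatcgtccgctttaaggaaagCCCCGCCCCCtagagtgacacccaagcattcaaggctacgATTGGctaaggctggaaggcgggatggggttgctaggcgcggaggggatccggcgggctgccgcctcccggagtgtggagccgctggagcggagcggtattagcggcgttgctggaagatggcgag

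The letters AGATAA (the core of a GATA site), TTCNNNGAA (STAT), CACGTG and CAGCTG (E-boxes), CCNCNCCC (KLF), CCAAT and TATAAA were searched on both strands, and this list was chosen after the windows had been seen. No motif searched was in all 5 windows. CCNCNCCC was in 4 of 5 (Cda, Plek2, Fam124a and Cpd) and in 49.5% of all 32851 windows of the same length; its 2 matches in Cpd overlap and form 1 run of capitals. AGATAA was in the Fam124a window alone (11.2% of all windows). CACGTG (7.15% of all windows) and TATAAA (13.6%) were in the C2cd4a window alone, the latter starting 30 bases before the gene start. CCAAT (37.4%) was in the Cpd window alone, read on the other strand as ATTGG. TTCNNNGAA (8.30%) and CAGCTG (16.3%) were in none of the 5, which says only that these letters are not in these 300 bases. GC content ran from 52.3% in C2cd4a to 72.0% in Fam124a, beside a median of 52.7% over all windows, and CG dinucleotides from 14 to 40, beside a median of 7.

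The sorted cells carried CFU-E genes in every group: in Mx1-Cre PBS libraries the mean signal was 233.5 for Gata1 and 372 for Klf1, both erythroid transcription factors, and 155 for Epor, the EPO receptor. The lowest group means of Gata1, Klf1 and Epor, all in P95H PHZ, were 203, 319 and 133. Of 8 CFU-E markers, 2 were called higher and 2 lower after PHZ in Mx1-Cre and 2 higher and 5 lower in P95H. These are 25% higher and 25% lower in Mx1-Cre and 25% higher and 62.5% lower in P95H. Over all genes the shares were 17% and 14.9% in Mx1-Cre and 12.6% and 17.7% in P95H. Among the 8 markers, the transferrin receptor gene Tfrc went from 366 to 682 in Mx1-Cre and from 421 to 697 in P95H. Kit went from 108 to 60.6 and from 87.7 to 51.9. Of the markers of other cell types, those of granulocytes and monocytes were the ones with high values. All 16 were above 0 in some library, and their summed signal was 460 to 966 in Mx1-Cre PBS, 153 to 1090 in Mx1-Cre PHZ, 571 to 2505 in P95H PBS and 161 to 604 in P95H PHZ. The endothelial marker Cdh5 did not exceed 0.0288 in any library, the macrophage marker C1qa did not exceed 0.103, and the T cell marker Cd3e was listed at 0 in 19 of 20 libraries. Summed signal over 11 macrophage markers was at most 5.03, over 8 megakaryocyte markers at most 17.7, over 8 endothelial markers at most 7.52 and over 6 lymphoid markers at most 9.62. It was at most 20.3 over 6 basophil and mast cell markers, of which the 1 tested was called lower after PHZ in both genotypes, and at most 13.7 over 9 markers that the sort excludes. In such bulk libraries, fewer cells of a type and less RNA per cell cannot be told apart. The libraries Mx1-Cre PBS replicate 4 and P95H PBS replicate 5 each had the lowest value of their group in 7 of 7 genes. The PHZ rise in Mx1-Cre, the genotype differences under PBS and the relations between the genes are also given without the former. The genotype differences under PBS and the median relation are also given without the latter.

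The authors' expression signal has the form of TPM (a share of transcripts, scaled by transcript length) multiplied by 1 factor per library, so levels can be set beside each other between genes. Podxl had the largest log2 difference of the 7 genes in both genotypes. Its signal in Mx1-Cre PBS replicates 1 to 5 was 2.53, 1.61, 1.85, 0.237 and 2.87, and in Mx1-Cre PHZ it was 181, 215, 242, 196 and 167. In P95H PBS it was 3.99, 1.2, 7.60, 5.18 and 1.11, and in P95H PHZ 232, 246, 211, 166 and 165. The lowest PHZ library of a genotype was thus 58.2 times (Mx1-Cre) and 21.7 times (P95H) its highest PBS library. On the ratio of group means the rise was 110-fold in Mx1-Cre and 53.4-fold in P95H, and the 2 ratios differ through the PBS means of 1.82 ± 1.02 and 3.82 ± 2.76 (SD, n = 5 each), since the PHZ means were 200.2 ± 29.4 and 204 ± 37.4. Podxl went from rank 9803 to rank 806 by mean signal among the 10890 genes kept in Mx1-Cre.

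C2cd4a was close to the lower end of the table without PHZ. Its signal was 0.192, 0.252, 0.267, 0 and 0.416 in Mx1-Cre PBS and 40.9, 26.2, 44.8, 34.9 and 20.4 in Mx1-Cre PHZ. In P95H it was 0.132, 0.197, 0.690, 0.430 and 0.0819 under PBS and 34.1, 46.5, 29.6, 17.6 and 22.9 after PHZ. The groups did not overlap, and the ratio of means was 148 in Mx1-Cre and 98.5 in P95H. With PBS means of 0.225 ± 0.150 and 0.306 ± 0.253 (SD, n = 5 each), the size of this rise on the log2 scale is set by the pseudocount: the Mx1-Cre difference was 4.77 with 1 added to each value, 6.81 with 0.1 and 2.84 with 5. Among the 7 genes, C2cd4a was second to Podxl in both genotypes with a pseudocount of 1. With 0.1 it was above Podxl in P95H (6.36 against 6.05), and with 5 it was below Fabp5 in Mx1-Cre (3.63).

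The enzyme gene Cda and the actin-associated Plek2 reached similar levels. Cda read 1.16, 2.05, 1.01, 0.291 and 1.91 in Mx1-Cre PBS and 30.8, 39.6, 37.4, 39.5 and 33.4 in Mx1-Cre PHZ. It read 2.98, 2.49, 4.16, 1.97 and 1.56 in P95H PBS and 45.9, 37.6, 48.3, 38.2 and 34.7 in P95H PHZ. All PHZ libraries of Cda lay above all PBS libraries, with a ratio of means of 28.2 in Mx1-Cre and 15.6 in P95H. Plek2 read 1.27, 0.866, 1.43, 0.302 and 1.40 in Mx1-Cre PBS and 30.2, 23.5, 27.2, 31.1 and 21.6 in Mx1-Cre PHZ. In P95H it read 1.70, 1.38, 2.29, 1.75 and 0.614 under PBS and 42.1, 30.0, 38.4, 21.9 and 38.8 after PHZ. The Plek2 groups were again separate, with a ratio of means of 25.4 in Mx1-Cre and 22.1 in P95H. 3 of the 5 P95H PHZ libraries lay above every Mx1-Cre PHZ library for Plek2.

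Fabp5 and Cpd differed from the others in being well expressed without PHZ. Fabp5 read 55.3, 49.3, 50.3, 30.7 and 58.2 in Mx1-Cre PBS and 546, 642, 704, 729 and 640 in Mx1-Cre PHZ. It read 54.7, 51.1, 67.7, 54.7 and 45.3 in P95H PBS and 628, 685, 753, 610 and 672 in P95H PHZ. It had the highest level of the 7 genes in every group and moved from rank 3288 to rank 205 among genes kept in Mx1-Cre, with a ratio of means of 13.4 there and 12.2 in P95H. Fabp5 has near-identical copies in the mouse genome, and the sources used here do not say how reads were split between them; the annotated copy Fabp5l2 was at most 0.282 in any library. Cpd read 16.2, 17.9, 19.0, 12.3 and 20.9 in Mx1-Cre PBS and 143, 175, 192, 157 and 104 in Mx1-Cre PHZ. In P95H it read 11.2, 13.6, 17.7, 11.7 and 8.67 under PBS and 171, 172, 185, 109 and 115 after PHZ. Its groups did not overlap, and the ratio of means was 8.94 in Mx1-Cre and 11.9 in P95H. Since Fabp5 and Cpd start from higher values, their log2 differences depended little on the pseudocount (3.77 with 0.1 and 3.63 with 5 for Fabp5 in Mx1-Cre, and 3.15 and 2.82 for Cpd).

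Fam124a, whose function is little known, read 1.26, 0.805, 1.01, 0.421 and 1.41 in Mx1-Cre PBS and 23.2, 22.3, 23.8, 20.5 and 19.8 in Mx1-Cre PHZ. In P95H it read 1.60, 1.58, 2.43, 2.52 and 1.24 under PBS and 29.7, 23.9, 27.0, 20.8 and 17.4 after PHZ. All PHZ libraries exceeded all PBS libraries, and the ratio of means was 22.3 in Mx1-Cre and 12.7 in P95H.

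On the log2(signal + 1) scale the order of the PHZ differences in Mx1-Cre was Podxl 6.25 (SE 0.360), C2cd4a 4.77 (SE 0.222), Cda 4.08 (SE 0.198), Plek2 3.78 (SE 0.202), Fabp5 3.74 (SE 0.134), Fam124a 3.55 (SE 0.151) and Cpd 3.08 (SE 0.198). In P95H it was Podxl 5.61, C2cd4a 4.52, Plek2 3.79, Fabp5 3.60, Cda 3.56, Cpd 3.48 and Fam124a 3.10, with the same standard errors. Without Mx1-Cre PBS replicate 4 the Mx1-Cre differences were 5.97 for Podxl, 4.70 for C2cd4a, 3.89 for Cda, 3.62 for Plek2, 3.59 for Fabp5, 3.44 for Fam124a and 2.97 for Cpd. Differences between genes were not tested; the steps from Plek2 to Fabp5 in Mx1-Cre and from Fabp5 to Cda in P95H were smaller than the SE of either gene. Under the choice described above, Fam124a was among the 6 largest rises in Mx1-Cre only and Cpd in P95H only, and just outside those 6 were Erfe (3.12) and then Cpd in Mx1-Cre, and Fam124a and then B3gnt7 (3.02) in P95H. Erfe encodes erythroferrone, the hormone by which erythroblasts lower hepcidin. Tcrg-C1, a T cell receptor segment that the choice left out and that would otherwise have taken a place among the 6, differed by 5.94 in Mx1-Cre and 5.80 in P95H, second to Podxl in the first genotype and above it in the second. Of the 10890 genes tested, 17% were called higher after PHZ and 14.9% lower in Mx1-Cre, and in P95H 12.6% were higher and 17.7% lower (limma, adjusted p below 0.05). All 7 genes are among those called higher in both genotypes. Their choice fixed this in the genotype where each was chosen. It did not fix the calls of Fam124a in P95H and of Cpd in Mx1-Cre. Granulocyte and monocyte markers were called lower after PHZ for 14 of 14 tested in P95H and 1 of 14 in Mx1-Cre. With their mean per library as a covariate the largest shift among the 7 genes was in Cpd in P95H, from 3.48 to 3.14.

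**Figure D1:**
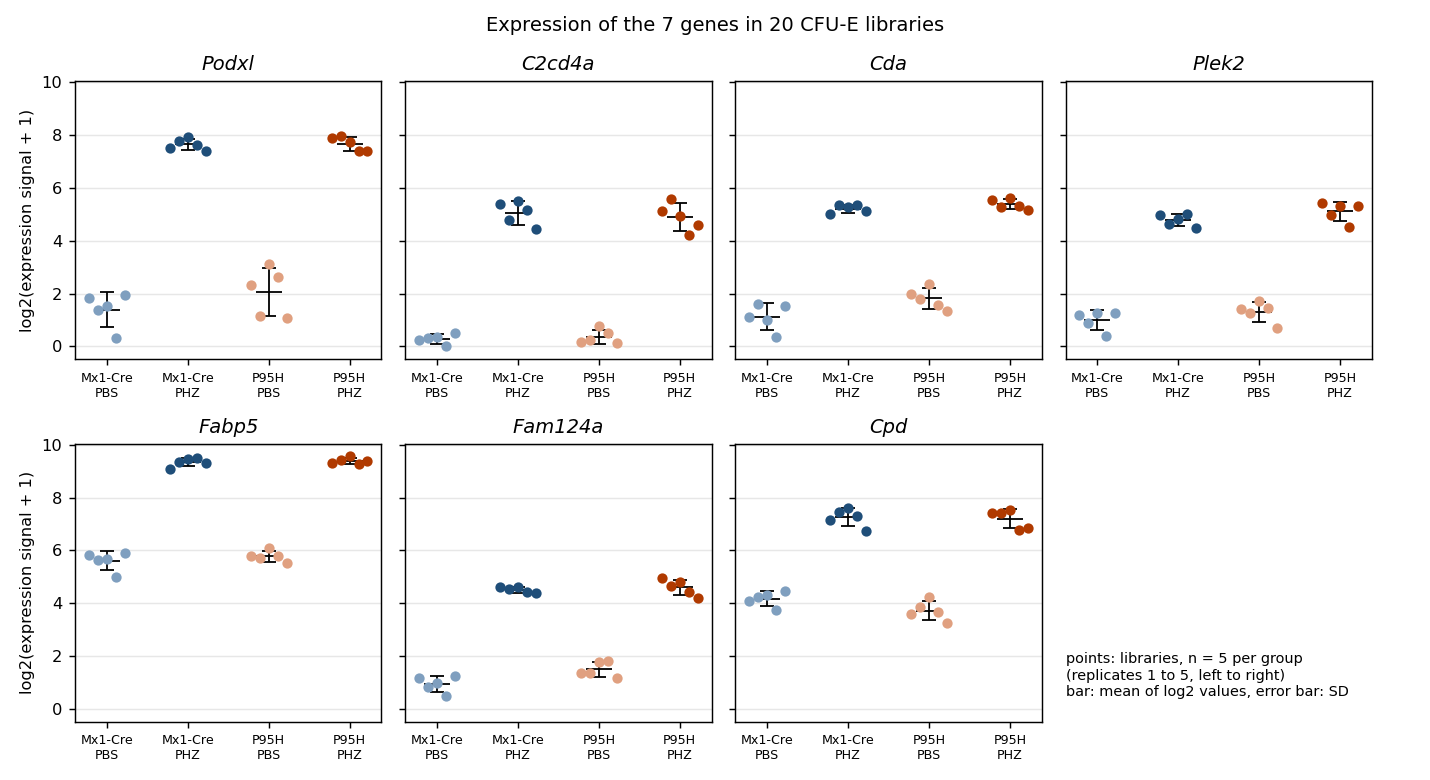
Expression of the 7 genes in the 20 CFU-E libraries, on the y axis as log2(expression signal + 1), by group on the x axis. Points are libraries (replicates 1 to 5 from left to right), horizontal bars are means of the log2 values and error bars are SDs (n = 5 per group). In each of the 7 panels all PHZ points lie above all PBS points of both genotypes, for genes that were chosen on this rise. Mx1-Cre PBS replicate 4 and P95H PBS replicate 5 are the lowest of their groups in each panel.

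The comparison of genotypes within a treatment is another contrast than the one that chose the genes, though it is made from the same libraries. Each group mean in it also enters a PHZ rise. Fam124a was among the 6 largest rises in Mx1-Cre only and Cpd in P95H only, which favours a low PBS and a high PHZ mean there. Their genotype differences, intervals and p-values are therefore not independent of the choice. The comparison asked whether the Srsf2 mutation goes with another level of the 7 genes. None of the 7 genes was called different between P95H and Mx1-Cre under PBS, where 1.48% of all genes were called. 6 of the 7 had the higher mean in P95H and Cpd the lower one, and for every gene the groups overlapped. The shares of all genes with such a direction or overlap are not given. Over all 10890 genes the median difference under PBS was -0.0278 on the log2 scale. In deviations from group means the 7 genes moved together among PBS libraries (median of Pearson's r over pairs 0.840). The 6 higher means are therefore not separate observations. The nearest to the threshold was Fam124a. Its mean was 1.87 ± 0.567 in P95H and 0.981 ± 0.390 in Mx1-Cre (SD, n = 5 each), with 4 of 5 P95H libraries above all Mx1-Cre libraries. The difference was 0.54 on the log2 scale (SE 0.151, 95% interval 0.23 to 0.85), with an adjusted p of 0.0765 in limma. Cda followed with 2.63 ± 1.01 in P95H and 1.28 ± 0.717 in Mx1-Cre (SD, n = 5 each) and 3 of 5 P95H libraries above all others. The Cda difference was 0.69 (SE 0.198, 95% interval 0.28 to 1.10, limma adjusted p 0.0933). In exact two-sided permutation tests over libraries, which can give no p below 0.00794 here, the raw p was 0.0238 for Fam124a and 0.0397 for Cda, and both were 0.278 after adjustment over 14 such tests.

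Whether these values passed depended on which libraries were used. Without Mx1-Cre PBS replicate 5 the Fam124a difference was 0.61 and passed the limma threshold (adjusted p 0.0477), and without P95H PBS replicates 4 and 5 together the Cda difference was 0.93 and passed (adjusted p 0.0450). The limit given above holds for Fam124a here as well, since its choice in Mx1-Cre favours a low PBS mean in that genotype. Over all alternatives the adjusted p ran from 0.0477 to 0.314 for Fam124a and from 0.0450 to 0.232 for Cda. Without Mx1-Cre PBS replicate 4, in which all 7 genes were lowest, the differences shrank to 0.42 for Fam124a (adjusted p 0.182) and 0.50 for Cda (adjusted p 0.175). The granulocyte and monocyte marker sums were higher in P95H PBS (571 to 2505) than in Mx1-Cre PBS (460 to 966), with overlap. With their mean as a covariate the differences were 0.57 for Fam124a and 0.77 for Cda.

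For Podxl the PBS difference was 0.66, but its interval ran from -0.10 to 1.42, and without Mx1-Cre PBS replicate 4 it was 0.39. Plek2 differed by 0.31 (interval -0.11 to 0.73), Fabp5 by 0.18 (-0.10 to 0.46) and C2cd4a by 0.08 (-0.38 to 0.54). Cpd was the one with a lower P95H mean, 12.6 ± 3.37 against 17.3 ± 3.27 (SD, n = 5 each), a difference of -0.44 (-0.86 to -0.03, limma adjusted p 0.319). 3 of 5 P95H libraries lay below every Mx1-Cre library for Cpd. Without Mx1-Cre PBS replicate 4 the differences were 0.15 for Plek2, 0.03 for Fabp5, 0.01 for C2cd4a and -0.55 for Cpd. Without P95H PBS replicate 5 they were 0.90 for Podxl, 0.46 for Plek2, 0.25 for Fabp5, 0.14 for C2cd4a and -0.33 for Cpd. With the marker mean as a covariate the Cpd difference was -0.27.

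After PHZ, 0 of the 7 genes were called different between the genotypes, where 5.47% of all genes were. The lowest adjusted p was that of Plek2 at 0.371, with means of 34.2 ± 8.24 in P95H and 26.7 ± 4.14 in Mx1-Cre (SD, n = 5 each) and a difference of 0.32 (95% interval -0.10 to 0.74). Fabp5 had the narrowest interval, from -0.24 to 0.32 around a difference of 0.04. For Podxl, whose intervals were the widest, the difference of 0.02 came with an interval of -0.74 to 0.78. The fit used 1 spread for all 4 groups, with an SE of 0.360 for Podxl in both treatments. With the compared groups alone the SE was 0.128 after PHZ and 0.469 under PBS. The interval after PHZ thus carries the wider spread of the PBS libraries, and the one under PBS is narrower than its own groups give.

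The difference between the genotypes in the PHZ effect is made of the same PHZ rises that chose the genes, so its values are a description and no test is read from them. Over all genes 0% were called (0 of 10890, with 577 at an unadjusted p below 0.05 in limma and a lowest adjusted p of 0.798). The interaction, P95H minus Mx1-Cre, was -0.64 on the log2 scale for Podxl (95% interval -1.72 to 0.43) and -0.52 for Cda (-1.11 to 0.07). For Plek2 it was 0.02 (-0.58 to 0.61), for Fabp5 -0.14 (-0.54 to 0.25) and for C2cd4a -0.25 (-0.90 to 0.41). It was -0.45 for Fam124a and 0.40 for Cpd, which each led in 1 genotype. Without Mx1-Cre PBS replicate 4 these values became -0.37 for Podxl, -0.33 for Cda, 0.17 for Plek2, 0.01 for Fabp5, -0.17 for C2cd4a, -0.33 for Fam124a and 0.51 for Cpd.

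**Figure D2:**
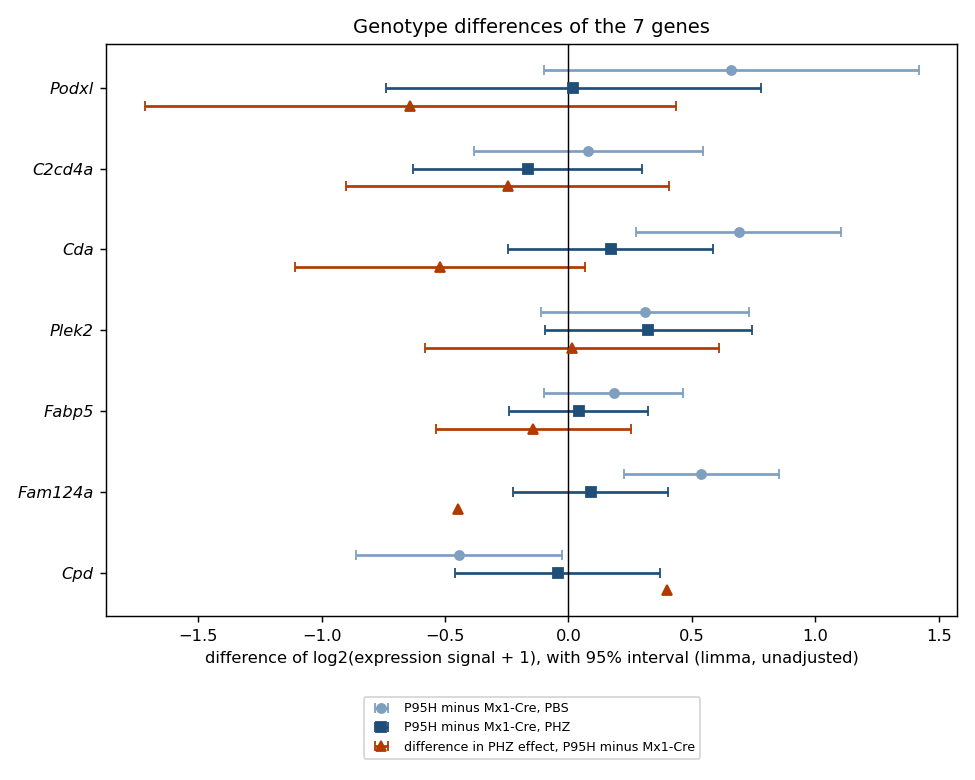
Genotype differences of the 7 genes (y axis) on the log2(expression signal + 1) scale (x axis). Circles are P95H minus Mx1-Cre under PBS, squares the same after PHZ, and triangles the PHZ effect in P95H minus that in Mx1-Cre, with unadjusted 95% intervals from limma (n = 5 libraries per group). The triangles are a description from which no test is read, since the PHZ rises chose the genes. The interaction of Fam124a and Cpd is drawn without an interval. Under PBS the unadjusted intervals of Cda (0.69) and Fam124a (0.54) lie to the right of 0 and that of Cpd (-0.44) to the left, and after PHZ every interval spans 0. The choice of Fam124a and Cpd rested on 1 genotype each, so their intervals are not independent of it.

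How far a library lay from its own group mean was not used in choosing the genes, and in this the 7 genes tended to move together. The median of Pearson's r over pairs of them was 0.840 among PBS libraries and 0.543 among PHZ libraries. In Mx1-Cre PBS replicate 4 all 7 were the lowest of the group, and in P95H PBS replicate 5 likewise 7 of 7. In P95H PBS replicate 3, 6 of 7 were the highest of the group, and in Mx1-Cre PBS replicate 5 it was 5 of 7. Mx1-Cre PHZ replicate 5 was lowest for 5 of 7 genes. The mean deviation of the 7 genes ran from -0.61 in Mx1-Cre PBS replicate 4 to 0.50 in P95H PBS replicate 3 on the log2(signal + 1) scale.

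**Figure D3:**
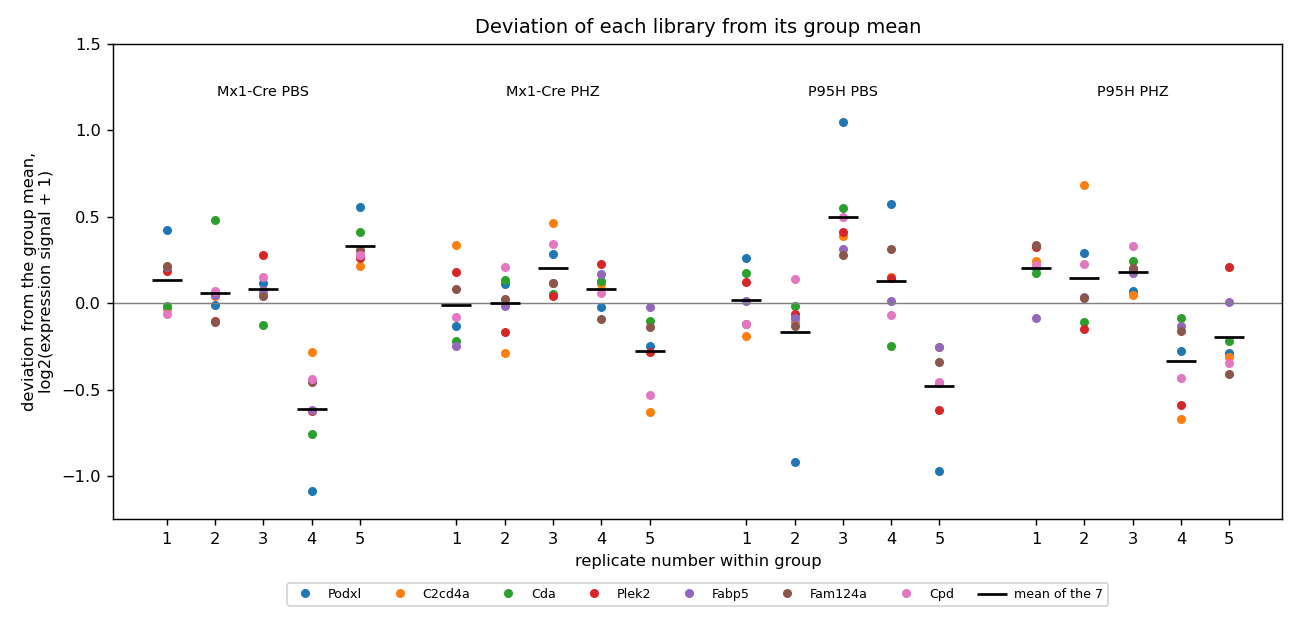
Deviation of each of the 20 libraries from its group mean in log2(expression signal + 1), on the y axis, by replicate number within the 4 groups, on the x axis. Points are the 7 genes and black bars their mean. The 7 points fall below 0 together in Mx1-Cre PBS replicate 4 (mean -0.61) and P95H PBS replicate 5 (mean -0.48), and rise together in P95H PBS replicate 3 (mean 0.50).

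Over the 20 libraries, with group means removed, the deviations correlated positively in 21 of 21 pairs of genes, with Pearson's r from 0.328 to 0.813 (median 0.669) and Spearman's rho from 0.269 to 0.839 (median 0.626). In permutation tests that exchanged libraries within groups, 20 of 21 pairs had an adjusted p below 0.05 by Pearson's r and 17 by Spearman's rho, adjusted over the 21 pairs. The strongest was Podxl with Fam124a (r = 0.813, permutation p 4e-05, adjusted 0.00084; rho = 0.839). The one that missed by r was C2cd4a with Cda (r = 0.328, adjusted permutation p 0.0690; rho = 0.269). Without the 2 libraries farthest from the median on the x axis, r ran from 0.341 to 0.707 (median 0.494). Over all pairs of kept genes the median r was 0.004, and 1.40% of pairs lay above the median of the 7 genes.

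Within treatments, r ran from 0.595 to 0.903 (median 0.840) among the 10 PBS libraries and from 0.0155 to 0.920 (median 0.543) among the 10 PHZ libraries; the difference was not tested. Among PHZ libraries r was highest for Podxl with Cpd (0.920), Podxl with C2cd4a (0.784), C2cd4a with Cpd (0.761), Fam124a with Cpd (0.752) and Podxl with Fam124a (0.737). It was lowest for Fabp5 with Fam124a (0.0155) and C2cd4a with Cda (0.143). Part of the relation came from a few PBS libraries. Without Mx1-Cre PBS replicate 4 the median over 19 libraries was 0.574 (0.259 to 0.752). It was 0.590 without P95H PBS replicate 3 and 0.598 without P95H PBS replicate 5. The last of these was kept in the joint removal that follows. Leaving out Mx1-Cre PBS replicate 4 and P95H PBS replicate 3 together gave a median of 0.462 over the 18 libraries left (0.114 to 0.726) and of 0.574 over the PBS libraries (0.000628 to 0.835), with r above 0 in 21 of 21 pairs. With the authors' factor per library divided out the median was 0.700. With a pseudocount of 5, which gives low values less weight, it was 0.563, and 13 of 21 pairs passed.

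No relation of the 7 genes with the mean granulocyte and monocyte marker level or the mean later erythroid marker level of the same libraries passed (14 relations, lowest adjusted permutation p 0.894). The largest was Plek2 with the later erythroid markers, such as the globin gene Hbb-bt and the haem synthesis gene Alas2 (r = 0.454, rho = 0.399; r = 0.259 without the 2 farthest libraries). It was 0.0202 among PBS libraries and 0.824 among PHZ libraries.

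**Figure D4:**
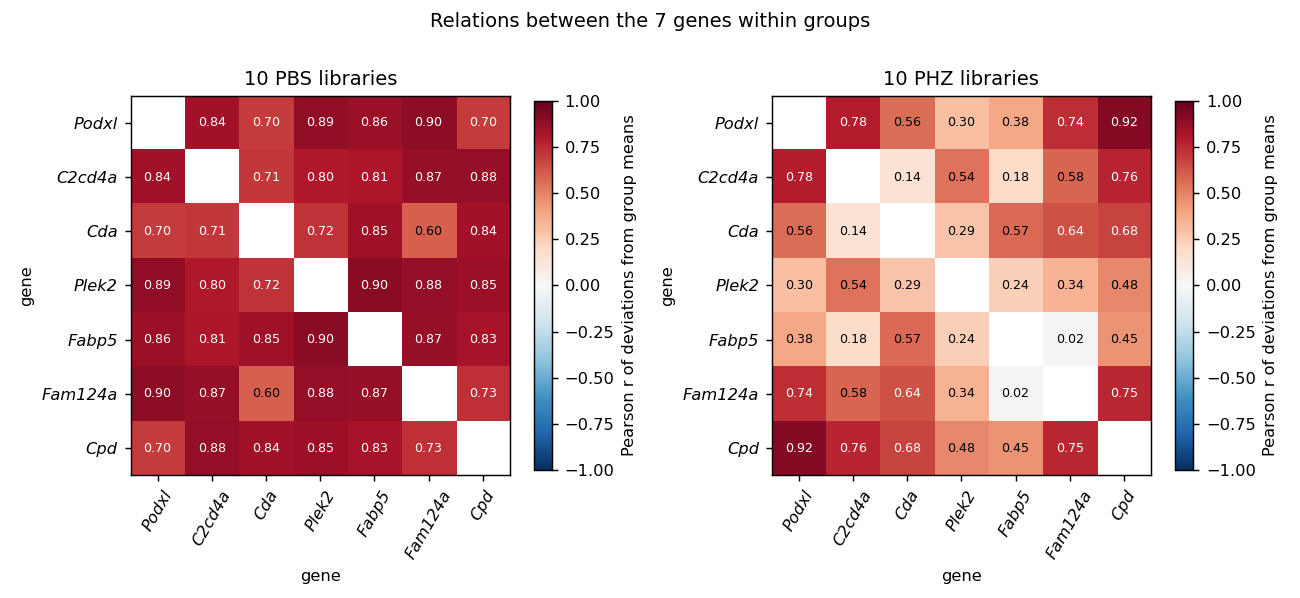
Pearson's r between the 7 genes (both axes), computed on deviations from group means in log2(expression signal + 1), among the 10 PBS libraries (left) and the 10 PHZ libraries (right). Colour runs from -1 (blue) to 1 (red). Among PBS libraries all 21 values lie between 0.595 and 0.903, and among PHZ libraries Podxl with Cpd is at 0.920 while Fabp5 with Fam124a is at 0.0155.

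After PHZ, no paralog reached the level of the gene itself. Under PBS Podxl and Plek2 could be as low as their relatives: in Mx1-Cre PBS replicate 4 Podxl read 0.237 and Plek2 0.302. 31 paralogs of Podxl, C2cd4a, Plek2, Fabp5, Fam124a and Cpd were looked up in the table, and 0 of 31 passed the filter on low values. Of the CD34 family, Cd34 itself was at most 0.788 and Podxl2 (endoglycan) at most 1.38 in any library, against 164.8 or more for Podxl in every PHZ library. C2cd4b, C2cd4c and C2cd4d were listed at 0 in all 20 libraries. Plek, the platelet pleckstrin, was at most 0.708. Of 9 relatives of Fabp5, the highest was Fabp7 at 0.771, and the adipocyte form Fabp4 was listed at 0 in 16 libraries. Fam124b was at most 0.101. Of 15 carboxypeptidases of the same metallopeptidase family as Cpd, the highest was Cpm at 0.610, while Cpe, which acts on prohormones, was at most 0.129.

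The lists of partners and pathways below were put together by known function, with earlier results of these data known. Over all 10890 genes the median log2 difference after PHZ was -0.00153 in Mx1-Cre and -0.0153 in P95H. Of 4 tested intracellular partners of podocalyxin, 3 were called higher and 0 lower in each genotype, beside 17% and 12.6% of all genes called higher, with a list median of 0.33 in Mx1-Cre and 0.39 in P95H. Slc9a3r1, the scaffold NHERF1 that binds the podocalyxin tail, rose from 12.8 ± 1.67 to 30.0 ± 3.20 in Mx1-Cre and from 15.4 ± 1.16 to 29.6 ± 2.11 in P95H (SD, n = 5 each; log2 differences 1.17 and 0.90). The membrane-actin linkers Msn (0.44 and 0.51) and Rdx (0.23 and 0.27) rose as well, and the related Ezr, at -0.03 and 0.05, did not pass.

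Of 25 tested genes of pyrimidine salvage and synthesis, the pathway of Cda, 7 were called higher and 3 lower in Mx1-Cre and 2 higher and 4 lower in P95H, with list medians of 0.03 and 0.08. These are 28% higher and 12% lower in Mx1-Cre and 8% higher and 16% lower in P95H, the latter at or below the shares over all genes (12.6% and 17.7%). Cad, which starts pyrimidine synthesis, rose by 0.44 and 0.32. Dctd, the deaminase of deoxycytidylate, rose by 0.39 in Mx1-Cre (0.21 in P95H, adjusted p 0.208). The mitochondrial kinases Cmpk2 (-0.48 and -0.52) and Tk2 (-0.37 and -0.42) were lower in both. The -0.48 of Cmpk2 was the largest difference of another pathway gene in Mx1-Cre, beside the 4.08 of Cda.

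Among 12 tested genes of pleckstrin and cofilin-actin turnover, 1 was called higher and 1 lower in Mx1-Cre and 1 higher and 0 lower in P95H, with list medians of -0.08 and -0.03. These are 8.33% higher and 8.33% lower in Mx1-Cre and 8.33% higher and 0% lower in P95H. The shares over all genes were 17% and 14.9% in Mx1-Cre and 12.6% and 17.7% in P95H. With 12 genes each list share rests on at most 1 call, and its distance from those shares was not tested. The genes called were Actb (beta-actin), higher by 0.45 and 0.31, and Limk2, a kinase of cofilin. Limk2 was lower by -0.33 in Mx1-Cre (-0.09 in P95H, limma adjusted p 0.450). Among 11 tested genes of fatty acid binding and uptake, 3 were higher and 2 lower in Mx1-Cre and 3 higher and 4 lower in P95H, with list medians of -0.01 and 0.01. These are 27.3% higher and 18.2% lower in Mx1-Cre and 27.3% higher and 36.4% lower in P95H, beside the same shares over all genes. With 11 genes each list share rests on few calls, and its distance from those shares was not tested. Ppard, the gene of the nuclear receptor PPAR-delta, rose from 6.59 ± 1.57 to 19.8 ± 2.65 in Mx1-Cre and from 6.19 ± 1.23 to 19.6 ± 4.43 in P95H (SD, n = 5 each; 1.47 and 1.51). The acyl-CoA synthetase Acsl3 rose by 0.75 and 0.56, whereas Acsl6 was lower (-0.38 and -0.52). The fatty acid transporter Cd36 was lower in Mx1-Cre (-0.71) and at -0.16 in P95H (adjusted p 0.420).

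Of 17 tested genes of the EPO and STAT5 response, 10 were called higher and 2 lower in Mx1-Cre and 9 higher and 4 lower in P95H, with list medians of 0.37 and 0.40. These are 58.8% higher and 11.8% lower in Mx1-Cre and 52.9% higher and 23.5% lower in P95H. Over all genes the shares were 17% and 14.9% in Mx1-Cre and 12.6% and 17.7% in P95H. The feedback inhibitors Cish (2.12 and 2.50) and Socs2 (1.61 and 1.57), the cytokine gene Osm (1.48 and 1.58) and the cyclin gene Ccnd2 (1.48 and 1.35) rose, below Erfe at 3.12 and 2.76. The kinase gene Jak2 was lower (-0.54 and -0.32), and so was Stat5b (-0.23 and -0.28). In P95H Stat5a (-0.23) and Gata1 (-0.19) were called lower too, beside -0.14 and -0.11 in Mx1-Cre, which did not pass. Over the lists together, 69 of 114 genes were tested. 24 were called higher and 8 lower in Mx1-Cre (34.8% and 11.6%), and 18 higher and 12 lower in P95H (26.1% and 17.4%), beside the shares over all genes given above. The number of lower calls moved with the scaling, and the EPO list supplied 10 of the 24 and 9 of the 18 higher calls.

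**Figure D5:**
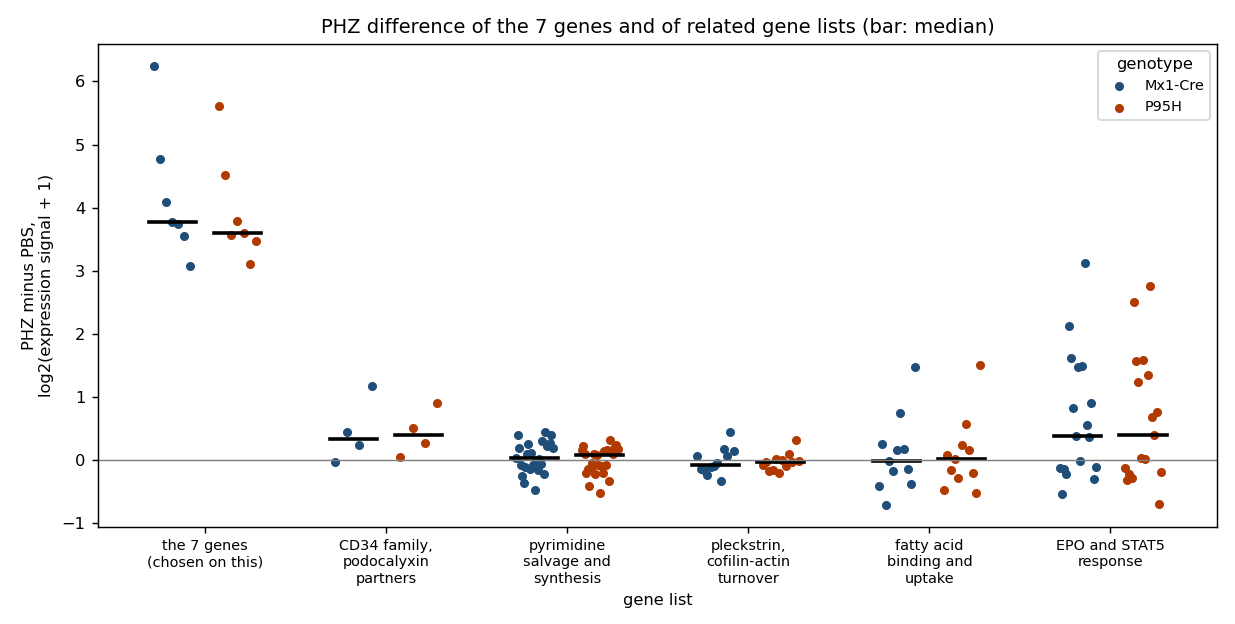
PHZ minus PBS on the log2(expression signal + 1) scale (y axis) for the 7 genes and for the tested genes of 5 related lists (x axis), in Mx1-Cre (blue) and P95H (orange). Points are genes and bars medians. The 7 genes, which were chosen on this value, run from 3.08 to 6.25 in Mx1-Cre, while list medians lie between -0.08 and 0.40.

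The likeness of other genes to the 7 was measured as the root mean square distance of a gene's standardised profile from their mean standardised profile, among 8517 genes with a mean of at least 5. Over the 20 libraries, where the PHZ rise dominates, the nearest other genes were Tcrg-C1 (0.115), Prkcq (0.150), a kinase of the protein kinase C family, Lrrc8b (0.164), a subunit of volume-regulated anion channels, Gab2 (0.192), an adaptor of cytokine receptor signalling, and Mthfd2 (0.193), an enzyme of mitochondrial folate metabolism. The 7 genes themselves lay between 0.0716 (Fabp5) and 0.167 (Cpd). Over the 10 PHZ libraries alone the nearest were Lrrc8b (0.378), Ppip5k2 (0.399), Rrn3 (0.479), Mthfd2 (0.494) and Polr2m (0.516), beside 0.404 for Cpd and 0.481 for Podxl. Lrrc8b and Mthfd2 were among the 5 nearest in both. Lrrc8b rose from 6.81 to 22.8 in Mx1-Cre and from 7.03 to 23.2 in P95H, and Mthfd2 from 48.9 to 130.1 and from 53.6 to 133. Fabp5 at 0.945 and Plek2 at 0.882 lay farthest from the common profile of the 7 genes among PHZ libraries. By this distance Fabp5 ranked 321, Plek2 219, C2cd4a 106, Cda 62 and Fam124a 35 among the 8517 genes. Cpd ranked 3 and Podxl 5. Many other genes thus lay nearer to this profile than some of the 7 did.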

How the data were processed

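Per the labels, CFU-E RNA was sequenced as 150 bp paired-end reads, and 20 libraries fall into 4 groups of 5. The submitters' processing notes list the builds mm10, GRCm38, hg19 and GRCh37 and the tools RSEM 1.2.4, TopHat2 2.0.8b, Bowtie and TopHat without their roles. The deposited table holds a normalised expression signal made by the authors. Its values are whole multiples of 0.01 times 1 factor per library (0.940 to 1.10, tolerance 0.01 of a step). The sums of the deposited signal were 924763 to 1085047 per library. Read counts are not in it, so depth is unknown and no interval from depth is given. The sources used here do not say how the factors were obtained.

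Values were analysed as log2(value + 1), which shrinks differences of weakly expressed genes. The filter was 1 or more in 5 or more libraries (10890 genes kept). Group means over the 20 libraries were fitted with limma 3.58.1 (R 4.3.3), with trended, robust moderation; p-values are two-sided and adjusted by Benjamini-Hochberg over those genes, with a threshold of 0.05, and the fit was tested on simulated data. Symbols came from a gene name table or from the deposited table itself (35986 entries with a symbol, 1762 without). Exact permutation tests used the 252 splits of 10 libraries, and relations used 100000 permutations within groups, after the 4 group means were removed (scipy 1.17.1, numpy 2.4.6, Python 3.11.15; figures with matplotlib 3.10.9).

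The 7 genes and all lists were chosen with earlier results of these data known. Named besides them are the 2 genes just below the 6 largest rises per genotype and the closest paralogs. Also named are up to 4 called genes per list with the largest difference, and the 5 nearest profiles. Tcrg-C1, Hbb-bt, Alas2, Ezr, Fabp7, Cpm, Jak2, Stat5a, Stat5b and cell markers were named after their values were seen. Alternatives were other scalings, pseudocounts of 0.1 and 5, other filters, the compared groups alone, plain moderation, library weights, a replicate block, a marker covariate, and left-out libraries; those of the relations were chosen after seeing the data.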

Additional observations from a re-analysis of the deposited data

Results flagged for a closer look

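Of 28 combinations of gene and group examined, 1 held a library far from the others: Fabp5 in Mx1-Cre PBS, where replicate 4 read 30.67. On the log2(signal + 1) scale its gap to the next library was 0.741 of the group's range. This is above the critical value of 0.71 for 5 libraries, and chance alone flags about 1 group in 20. On the signal itself the gap is a smaller share of the range, below that critical value, so the flag depends on the scale. The same library was the lowest of its group for the other 6 genes as well.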

How the results depend on the processing

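The 33 other settings left 0 of the 7 genes called between genotypes after PHZ. Under PBS, 1 was called without P95H PBS replicates 4 and 5 (Cda at 0.93) and 0 to 1 when 1 library was left out (Fam124a at 0.42 to 0.62, called without Mx1-Cre PBS replicate 5). The Fam124a call is not independent of the choice of that gene. Of 684 uncalled values under alternatives, 28 had the opposite sign. They take in the genotype differences under both treatments and also the interaction, which is a description with no test. Over all genes, the 161 calls under PBS became 78 in the compared groups alone, 538 with library weights, 98 without P95H PBS replicates 4 and 5, and 90 to 180 when 1 library was left out (90 without P95H PBS replicate 5, 92 without Mx1-Cre PBS replicate 1 or 3). The 596 calls after PHZ became 292 with quantile normalization, 278 with the authors' factor divided out, 345 in the compared groups alone, and 319 to 696 when 1 library was left out (319 without Mx1-Cre PHZ replicate 3, 331 without P95H PHZ replicate 3). The interaction had 1 call with no filter. Related genes called lower in Mx1-Cre (8) became 13 with quantile normalization, 15 with library weights and 5 with the marker covariate, and those in P95H (12) became 5 with the authors' factor divided out, 3 with the covariate and 5 without P95H PBS replicates 4 and 5. The cause was not tested. Of all PHZ calls, those higher made up 53.4% in Mx1-Cre and 41.6% in P95H, and 64.8% and 69.9% with the authors' factor divided out. Among genotype calls the higher share was 24.2% under PBS (39.4% with quantile normalization) and 20.1% after PHZ (44.2% with quantile normalization, 47.8% with the factor divided out). Of 462 values of the PHZ rise under alternatives, 21 moved by more than the spread between libraries, 20 of them with another pseudocount. The median r between the 7 genes ran from 0.574 to 0.704 when 1 library was left out, and 13 pairs passed with a pseudocount of 5.

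Replicate numbers showed no clear pairing of libraries (correlation of deviations -0.31 to 0.44, median 0.03 over 30 same-number pairs, and -0.02 over other pairs). With the replicate block, the PBS difference stayed 0.69 for Cda (adjusted p 0.0830) and 0.54 for Fam124a (adjusted p 0.0691), and calls were 189 under PBS and 617 after PHZ. For Cpd it stayed -0.44, with an SE of 0.142 beside 0.198 and a limma adjusted p of 0.136 beside 0.319 in the main fit.

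The unknown depth and the 5 libraries a group limit the precision. C2cd4a and other genes near 0 under PBS have no firm size of rise on the log2 scale.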
